A study of Mus musculus with 3 samples.

Results

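Laminins and the integrins of the hemidesmosome hold the corneal epithelium to its basement membrane, and 8 of their genes are described here in 3 droplet libraries of nuclei from whole mouse cornea. The genes are the laminin chains Lama3, Lamb3 and Lama5, the integrin subunits Itga6, Itgb4 and Itga3, the linker nidogen-1 (Nid1) and the heparan sulfate proteoglycan perlecan (Hspg2). They were chosen by symbol, matched by Ensembl ID, and are 8 of the 30406 genes listed for all 3 libraries. Nuclei were isolated from snap-frozen corneas of 5 pooled mice per library, aged 7 weeks per the labels. The first library is from untreated wild-type mice (WT) and the second from untreated knockout mice (KO), whose deleted gene is Aire per the series text. The third is from knockout mice that received PBS for 14 days (KO_PBS). The series text gives an age of 6 weeks and a treatment day of 7 instead, and mentions a lacripep group, which is not analysed here. Sex and strain are not given in the sources used here, and the series title speaks of topical treatment. The mice model autoimmune dry eye, and the comparisons set the knockout cornea against wild type and the PBS-treated cornea against each.

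Laminins are secreted as trimers of 1 alpha, 1 beta and 1 gamma chain that assemble into the sheet of the basement membrane. Lama3 and Lamb3 belong to the laminin of the epithelial anchoring complex, which is bound by the pair of Itga6 and Itgb4 in hemidesmosomes, and the intracellular linkers plectin (Plec) and dystonin (Dst) couple that pair to keratin filaments. Itga3 pairs with Itgb1 and binds the same laminin outside hemidesmosomes, while nidogen and perlecan join the laminin sheet to type IV collagen.

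All 8 genes lie on assembled chromosomes of GRCm38, the build named mm10 in the submitters' processing notes, and positions are from the GENCODE annotation of that build. Lama3 is ENSMUSG00000024421. Lamb3 (ENSMUSG00000026639) lies at chr1:193207699-193343878, plus strand, and Lama5 (ENSMUSG00000015647) at chr2:180176373-180225859, minus strand. Itga6 (ENSMUSG00000027111) is on the same chromosome as Lama5, at chr2:71745616-71858416, plus strand. Itgb4 (ENSMUSG00000020758) lies at chr11:115974709-116008412, plus strand, and Itga3 (ENSMUSG00000001507) at chr11:95044474-95076801, minus strand. Nid1 (ENSMUSG00000005397) lies at chr13:13437551-13512269, plus strand, and Hspg2 (ENSMUSG00000028763) at chr4:137468769-137570630, plus strand. Antisense genes share 197 exon bases with Lama3 (Gm29200) and 143 with Nid1 (Gm48682). Reads there cannot be assigned to either gene without strand, and the use of strand in counting is not given in the sources used here. Gm29200 stood at 0.801 CPM or less in every library and Gm48682 at 0.725 CPM or less, where CPM is a gene's UMIs scaled to a common library size. B230344G16Rik, listed for KO_PBS alone, shares 537 exon bases with Itgb4 on the opposite strand. Itga6 overlaps Gm13663 and Gm13662 on its own strand, listed for WT and KO alone. It also overlaps Gm17250 on the opposite strand, listed for KO_PBS alone. Each of these shares 0 exon bases with Itga6.

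RefSeq start-site windows on GRCm38.p6 were matched for 5 of the 8 genes. The 3 printed here belong to the genes that stood higher in KO than in WT by at least 2-fold and had such a window. Each runs 5′ to 3′ on the gene's own strand up to its annotated start, and capitals mark the GC box GGGCGGG, a letter pattern known from promoters without a TATA box, on either strand. The Nid1 window (chr13:13437352-13437550, plus strand) holds 1 such match, and 16.1% of all 32851 promoters hold one in the same stretch. The Hspg2 window (chr4:137468553-137468768, plus strand) holds 3, against 19.1% of promoters with any. The Lamb3 window (chr1:193301744-193301992, plus strand) lies inside the annotated gene, before a downstream start, and holds 0, where 23.3% of promoters hold one.
Nid1: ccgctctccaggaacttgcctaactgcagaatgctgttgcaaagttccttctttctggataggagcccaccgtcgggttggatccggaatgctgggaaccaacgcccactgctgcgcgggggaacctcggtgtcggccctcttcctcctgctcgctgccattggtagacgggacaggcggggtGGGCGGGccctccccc
Hspg2: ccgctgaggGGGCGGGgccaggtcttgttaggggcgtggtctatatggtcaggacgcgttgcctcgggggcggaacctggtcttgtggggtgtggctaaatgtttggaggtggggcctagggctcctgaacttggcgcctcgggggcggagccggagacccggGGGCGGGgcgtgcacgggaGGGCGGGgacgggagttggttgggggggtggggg
Lamb3: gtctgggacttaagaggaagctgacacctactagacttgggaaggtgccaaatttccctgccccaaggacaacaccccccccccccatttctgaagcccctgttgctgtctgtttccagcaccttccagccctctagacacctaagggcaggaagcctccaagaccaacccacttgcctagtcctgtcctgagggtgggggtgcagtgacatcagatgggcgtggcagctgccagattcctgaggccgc
The same windows were searched on both strands for the AP-1 pattern TGANTCA, the GRHL pattern AACNGGTT, the GAS pattern TTCNNNGAA and the TATA box TATAAA. None of these 4 was found in the windows of Nid1, Hspg2, Lamb3, Lama5 or Itga3. Over 250 upstream bases, 6.75% of all promoters hold the AP-1 pattern, 1.79% the GRHL pattern, 7.02% the GAS pattern and 12.4% the TATA box. The AP-1 and GAS patterns read the same on both strands, and no match overlapped another.

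WT had 96587 barcodes with a median of 2261 UMIs, KO had 107031 with 2980, and KO_PBS had 114357 with 1432. Each group is 1 library, so no difference has a replicate check, no p-value is given, and intervals cover counting error only. UMIs of Aire numbered 15, 27 and 68 UMIs in that order, which does not check the labels, so every direction is between libraries as labelled. The labelled tissue was checked against its markers, and Krt12, the keratin of corneal epithelium, stood at 26121 CPM in WT, 13793 in KO and 6205 in KO_PBS. Krt12 is 1 of 7 markers of differentiated corneal epithelium. Of these, 6 had a log2 ratio below 0 in KO against WT, but 5 had one above 0 in KO_PBS against KO. Markers of other tissue set KO_PBS apart. Its summed lens markers reached 7032 CPM against 504 in WT and 199 in KO, its photoreceptor markers 1921 against 153 and 63.2, its melanocyte markers 4138 against 486 and 140, and its skeletal muscle markers 211 against 13.1 and 21.4. No marker of any list was at 0 in any library. Between 2833 and 3379 barcode sequences were shared by each pair of libraries.

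The 8 genes differed in level and in the order of the libraries. Lama3 had the most UMIs of the set in each library. They numbered 39076 (WT), 83878 (KO) and 14582 (KO_PBS). Nid1 had 2891, 10318 and 5008. Per kilobase of merged exon, Itgb4 led in WT with 15.5 CPM per kb, ahead of Lama3 with 14.2, Itga6 with 7.99 and Itga3 with 6.71. In KO, Itga6 led with 23.3 CPM per kb, and Lama3 and Itgb4 followed at 22.2 each. In KO_PBS the first 4 lay close together, from 10.2 for Itgb4 down to 7.63 for Lama3. Hspg2 was lowest in WT at 0.994 CPM per kb, and Lama5 was lowest in KO at 1.26 and in KO_PBS at 1.77. Nuclear RNA holds unspliced transcripts, so the order was also read per kilobase of whole gene. There, Itgb4, Itga3 and Itga6 led in that order in every library, with 3.23, 1.18 and 0.639 CPM per kb in WT.

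**Figure D1:**
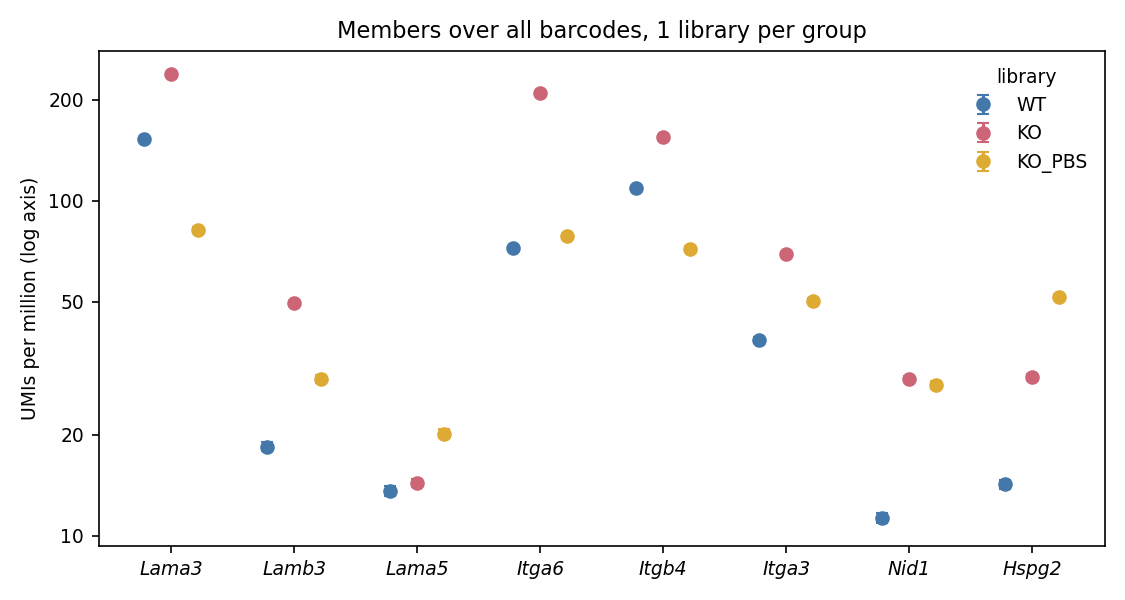
Level of each of the 8 genes in the WT, KO and KO_PBS libraries, in CPM on a log axis, with exact 95% Poisson intervals as bars that cover counting error only. Lama3 and Itgb4 are lowest in KO_PBS, Hspg2 is highest there, and Lamb3, Itga6, Itga3 and Nid1 are lowest in WT.

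The KO library was first set against WT. The laminin chain Lamb3, the integrin subunit Itga6, and both linkers Nid1 and Hspg2 stood at least 2-fold higher in KO, while Lama3, Lama5, Itgb4 and Itga3 did not reach that fold. A gene was called higher or lower when its CPM differed by 2-fold or more, its exact 95% Poisson intervals lay apart, and the libraries together held 50 or more of its UMIs. By this rule of size, 4 of the 8 genes were called higher and 0 lower, where 20.6% of all 20252 genes were called higher and 8.63% lower. The median log2 ratio was 0.96 over the 8 genes and 0.24 over all genes. In sums over a whole library, fewer cells of a type and less RNA per cell cannot be told apart. Of the 6 basal and limbal epithelial markers, 3 were called higher and 1 lower in KO, with a median log2 ratio of 0.89. Their sum stood at 11863 CPM in WT and 9592 in KO. The part of basal and limbal epithelium in the ratios of the 8 genes was not tested.

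Among the laminin chains, Lamb3, the beta chain of the anchoring laminin, stood at 18.4 CPM in WT, 49.6 in KO and 29.4 in KO_PBS. It was lowest in WT and highest in KO, and its ratio of KO to WT was 2.69 (95% Poisson interval 2.61 to 2.78), a log2 ratio of 1.43. Lama3, the alpha chain of the same laminin, stood at 153 CPM in WT, 239 in KO and 82.0 in KO_PBS. It was highest in KO and lowest in KO_PBS. The KO to WT ratio of Lama3 was 1.56 (1.54 to 1.58), short of the rule. Lama5, the alpha chain of a laminin found in most epithelial basement membranes, stood at 13.6 CPM in WT, 14.3 in KO and 20.2 in KO_PBS. Its WT and KO intervals overlapped and KO_PBS lay above both. The KO to WT ratio of Lama5 was 1.05 (1.01 to 1.10), and its log2 ratio of 0.07 became -0.17 when centred on the median gene.

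Among the integrin subunits, Itga6, the alpha subunit of the hemidesmosome receptor, stood at 72.1 CPM in WT, 210 in KO and 78.2 in KO_PBS. KO stood far above the other libraries, which lay close together. Its KO to WT ratio of 2.92 (2.87 to 2.96), a log2 ratio of 1.54, was the highest of the 8 genes. Itgb4, the beta subunit that pairs with Itga6 alone, stood at 109 CPM in WT, 156 in KO and 71.8 in KO_PBS. It was likewise highest in KO, but by 1.43-fold over WT (1.41 to 1.45), and lowest in KO_PBS. Itga3, the alpha subunit that pairs with Itgb1, stood at 38.3 CPM in WT, 69.4 in KO and 50.1 in KO_PBS. Its KO to WT ratio of 1.81 (1.77 to 1.85) was not called.

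Of the linkers, Nid1, which binds the laminin gamma chain and type IV collagen, stood at 11.3 CPM in WT, 29.4 in KO and 28.2 in KO_PBS. Both knockout libraries lay close together, with overlapping intervals, above WT. The KO_PBS to KO ratio of Nid1 was 0.959, and its own interval (0.927 to 0.992) lay just below 1. The KO to WT ratio of Nid1 was 2.60 (2.49 to 2.71). Hspg2, which encodes perlecan, stood at 14.2 CPM in WT, 29.7 in KO and 51.7 in KO_PBS. It was lowest in WT and highest in KO_PBS, and its KO to WT ratio of 2.09 (2.01 to 2.17) was the closest to the threshold of those called. Centred on the median gene, its log2 ratio went from 1.06 to 0.82 and the call was lost, leaving Lamb3, Itga6 and Nid1, where 14.8% of all genes were then higher and 12.9% lower. Summed keratocyte markers, the genes of the resident stromal cells, stood at 1238 CPM in WT and 4109 in KO, with 8 of 9 higher in KO. Macrophage markers stood at 64.6 and 827 CPM, and their part and that of the keratocyte markers in the ratios of Nid1 and Hspg2 was not tested.

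Over all genes, the median log2 ratio of KO to WT was 0.08 for genes shorter than 10 kb and 0.41 for genes of at least 100 kb, the class of Lama3, Lamb3, Itga6 and Hspg2. It was 0.36 for genes of 30 to 100 kb, the class of Lama5, Itgb4, Itga3 and Nid1. The ratios of Lamb3, Itga6, Nid1 and Hspg2 were called at 2-fold or more, so they could not lie below these medians. Of the other genes, Lama3 (0.64), Itga3 (0.86) and Itgb4 (0.52) lay above the median of their class and Lama5 (0.07) below. In KO_PBS against KO, the medians were 0.46 for genes shorter than 10 kb and 0.83 for genes of at least 100 kb. In KO_PBS against WT they were 0.90 and 1.66. The part of gene length in the ratios was not tested in any comparison.

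The KO_PBS library was next set against KO, which is also the numerator of the first comparison. Lama3, Itga6 and Itgb4 were called lower in KO_PBS when libraries were scaled to their totals, with log2 ratios that changed sign when scaled to UMIs of the keratin Krt5. No gene of the 8 was called higher. Thus 3 of 8 were called lower and 0 higher, where 4.7% of all 22416 genes were called lower and 39.9% higher. The median log2 ratio was -0.61 over the 8 genes and 0.63 over all genes. Centred on that all-gene median, Lamb3 and Itga3 were called lower as well, where 12.9% of all genes were lower and 29.9% higher.

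Lama3 was 2.91-fold lower in KO_PBS than in KO (95% Poisson interval 2.86 to 2.96), a log2 ratio of -1.54 that lay at the 2.81 percentile of all genes tested. Itga6 was 2.69-fold lower (2.64 to 2.74), and Itgb4 was 2.17-fold lower (2.12 to 2.21). Their percentiles were 3.07 and 4.18. These are the 3 genes of the set with the most UMIs in KO. Neither of the other laminin chains was called, and their signs depended on the scaling. The log2 ratio of Lamb3 was -0.75, and 0.24 when scaled to the hemidesmosome collagen Col17a1, while that of Lama5 was 0.49, and -0.14 when centred on the median gene. Itga3 had a log2 ratio of -0.47 (0.53 scaled to Col17a1) and Nid1 of -0.06 (0.94), and the intervals of Nid1 in KO and KO_PBS overlapped. Hspg2 had the highest, 0.80, a 1.74-fold difference that was not called either.

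Beside these ratios, summed basal and limbal epithelial markers stood at 9592 CPM in KO and 3629 in KO_PBS, and differentiated corneal epithelial markers at 33588 and 28154. Of the 7 differentiated markers, 5 had a log2 ratio above 0, and the median was 0.11. The sum includes Krt12, which stood at 13793 and 6205 CPM. Krt5 and Krt14, the basal keratins in the basal and limbal sum, also belong to the list of hemidesmosome genes. All 10 lens, 8 photoreceptor, 6 melanocyte and 10 skeletal muscle markers were called higher in KO_PBS. The part of this other tissue in the levels of the 8 genes was not tested.

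Against WT, the KO_PBS library had Nid1 and Hspg2 called higher and none of the 8 genes called lower. This comparison shares WT with the first and KO_PBS with the second. More genes were called here than in the other comparisons, since 57% of 22138 were called higher and 4.06% lower, so 2 of 8 lies below the background. The median log2 ratio was 0.48 over the 8 genes and 1.27 over all genes. Hspg2 was 3.64-fold higher (3.50 to 3.78) and Nid1 2.49-fold higher (2.38 to 2.61). Over all genes in this comparison, the median log2 ratio was 1.36 for genes of 30 to 100 kb, the class of Nid1. It was 1.66 for genes of at least 100 kb, the class of Hspg2. The log2 ratio of Nid1 was 1.32 and that of Hspg2 1.86, and the part of gene length in them was not tested. Summed vascular and lymphatic endothelial markers stood at 40.1 CPM (WT), 88.0 (KO) and 233 (KO_PBS), with 13 of 13 called higher in KO_PBS than in WT, and corneal endothelial markers at 210, 290 and 1172 CPM, with 5 of 5 higher. Their part in the ratios of Hspg2 and Nid1, in this and the other comparisons, was not tested. Centred on the median gene, neither was called, and Lama3, Itga6 and Itgb4 were called lower, where 29.6% of all genes were higher and 23.1% lower. Lama3 had a log2 ratio of -0.90 before centring, Itgb4 of -0.60 and Itga6 of 0.12. The sign for Itga6 thus depended on centring, as did those of Lamb3 (0.67), Lama5 (0.57) and Itga3 (0.39).

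**Figure D2:**
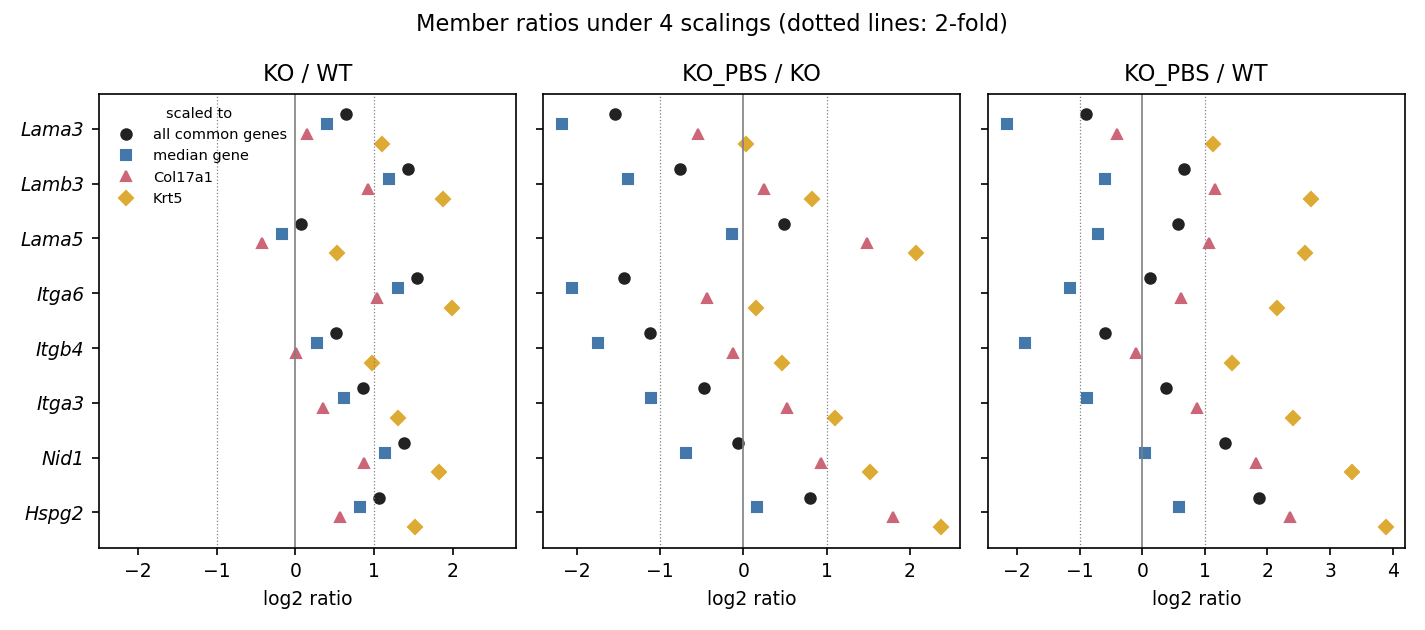
Log2 ratio of each gene in the 3 comparisons when libraries are scaled to all common genes, to the median gene, to Col17a1 UMIs or to Krt5 UMIs; dotted lines mark a 2-fold difference and the panels have different axis ranges. Itga6 lies above 2-fold in KO against WT under all 4 scalings, while the ratios of Lama3, Itga6 and Itgb4 in KO_PBS against KO lie below 0 under 3 scalings and above 0 under Krt5.

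Since the laminin and integrin genes of the set act in epithelium, the libraries were also scaled to epithelial anchoring genes, chosen after the data were seen. The linkers Nid1 and Hspg2 were scaled in the same way, though this reason need not apply to them. It need not apply fully to Itga6 either, which was also called higher in the vascular and lymphatic endothelial class of KO_PBS. Col17a1, the transmembrane collagen of the hemidesmosome, stood at 518 CPM in WT, 734 in KO and 368 in KO_PBS. Scaled to it, the log2 ratios of KO_PBS to KO were -0.54 for Lama3, -0.43 for Itga6 and -0.12 for Itgb4, and none was called. Scaled to Krt5, whose own log2 ratio was -1.58, they were 0.04, 0.15 and 0.46. In KO against WT, Itga6 alone of the 8 genes was still called higher with the Col17a1 scaling, where 11.3% of all genes were higher and 19.7% lower. The all-gene median under Col17a1 was -0.26 in KO against WT and 1.63 in KO_PBS against KO, since scaling to 1 gene shifts the log2 ratios of all genes by the same amount.

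Ratios of UMIs within a library need no scaling, and they set partner chains against each other. The ratio of Itga6 to its partner Itgb4 was 0.663 in WT (95% interval 0.650 to 0.675), 1.35 in KO (1.34 to 1.37) and 1.09 in KO_PBS (1.06 to 1.12). It was lowest in WT and highest in KO, with no overlap of the intervals. Lama3 to Lamb3, chains found in equal number in the anchoring laminin, was 8.28 in WT, 4.81 in KO and 2.79 in KO_PBS. This ratio was lower in each knockout library than in WT, and lowest in KO_PBS. UMIs of different genes depend on their length, so these ratios compare libraries and do not give the proportions of chains.

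Itgb4 kept nearly the same ratio to Col17a1, 0.210 in WT, 0.212 in KO and 0.195 in KO_PBS, and so did Plec, at 0.386, 0.385 and 0.427. Dst, the other intracellular linker, did not, at 0.265, 0.279 and 0.504. Itga6 to Col17a1 was 0.139, 0.286 and 0.213, lowest in WT and highest in KO. Lama3 to Col17a1 was 0.295, 0.325 and 0.223, and Lamb3 to Col17a1 was 0.0356, 0.0676 and 0.0800. The ratio of Itga3 to Itga6 was 0.531 in WT, 0.330 in KO and 0.640 in KO_PBS, lowest in KO. Itga3 to its partner Itgb1 varied less, at 0.264, 0.310 and 0.260. Hspg2 to Nid1 was 1.26, 1.01 and 1.84, so perlecan stood highest against nidogen in KO_PBS.

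**Figure D3:**
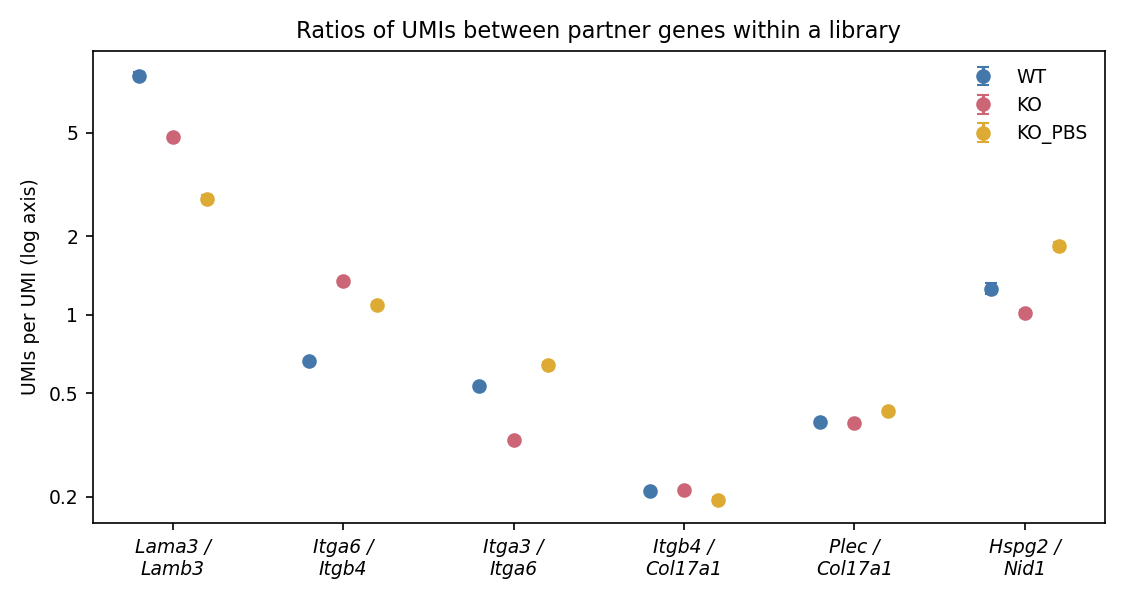
Ratios of UMIs between partner genes within each library on a log axis, with 95% intervals that cover counting error only. Itgb4 to Col17a1 lies between 0.195 and 0.212 in the 3 libraries, while Itga6 to Itgb4 runs from 0.663 in WT to 1.35 in KO and Lama3 to Lamb3 from 8.28 in WT to 2.79 in KO_PBS.

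The remaining genes of these structures were read from lists of pathway genes, whose counts stand beside 20.6% of all genes called higher and 8.63% lower in KO against WT, and 39.9% higher and 4.7% lower in KO_PBS against KO. Of the 8 other laminin chains, 5 were called higher and 1 lower in KO against WT, with a median log2 ratio of 1.21 against 0.24 for all genes. Lamc1, the gamma chain of most laminins, stood at 11.3 CPM in WT, 36.2 in KO and 34.5 in KO_PBS, and its KO to WT log2 ratio of 1.68 was called. Lama4, an alpha chain of endothelial and mesenchymal basement membranes, had the highest of the list, 2.04. In KO_PBS against KO, 4 of the 8 chains were called higher and 0 lower, near the 39.9% of all genes, led by Lamc3 at 3.98 and Lama1 at 1.35. Lamb2 stood at 11.2, 26.5 and 65.4 CPM and was called higher in each comparison. Lamb1, at 32.6, 35.0 and 42.7 CPM, was called in none.

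Of the 8 other hemidesmosome and anchoring genes, Krt14 alone was called in KO against WT, higher with a log2 ratio of 1.61, and the list's median was 0.50. In KO_PBS against KO, 0 were called higher and 2 lower, Krt5 at -1.58 and Krt14 at -1.36, with a list median of -0.92 against 0.63 for all genes. Col17a1 was 1.997-fold lower, just short of the rule, and the anchoring fibril collagen Col7a1 was 1.99-fold lower, at 37.6 CPM in KO and 18.9 in KO_PBS. Plec stood at 200 CPM in WT, 282 in KO and 157 in KO_PBS, and Dst at 137, 205 and 185, with none of their ratios called. Against WT, Krt5 and Fermt1, an integrin activator of epithelium, were called lower in KO_PBS, at -2.03 and -1.28.

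The 21 other basement membrane genes differed from these in the comparisons of KO_PBS. In KO against WT their median log2 ratio was 0.39, close to the 0.50 of the hemidesmosome list. In KO against WT, 5 of the 21 were called higher and 0 lower, near the 20.6% of all genes, led by Smoc2 (log2 ratio 2.25), Col15a1 (2.06) and Thbs1 (1.75). In KO_PBS against KO, 16 were higher and 1 lower, with a list median of 1.81 against 0.63 for all genes. Col18a1 led with 3.09, followed by Npnt with 2.84 and Frem1 with 2.66, all matrix proteins of basement membranes. Nid2, the other nidogen, stood at 1.98 CPM in WT, 3.54 in KO and 18.5 in KO_PBS, a log2 ratio of 2.39 between the knockout libraries where that of Nid1 was -0.06. Of the 17 other matrix receptors, 7 were called higher in KO against WT, led by Itgb3 (3.22), Itga5 (1.96) and Itga1 (1.76). In KO_PBS against KO, 4 of the 17 were, below the 39.9% of all genes, led by Itga7 (2.56), Itga8 (1.97) and Itgb8 (1.63), and none was lower in either. Itgb1, the shared partner of these alpha chains and of Itga3, stood at 145, 224 and 192 CPM and was not called. Of the 10 integrin adaptors, Pxn alone was called in KO against WT (1.06), and 3 of the 10, Fermt2 (2.10), Tln2 (1.30) and Ilk (1.15), were called higher in KO_PBS against KO, also below 39.9%.

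**Figure D4:**
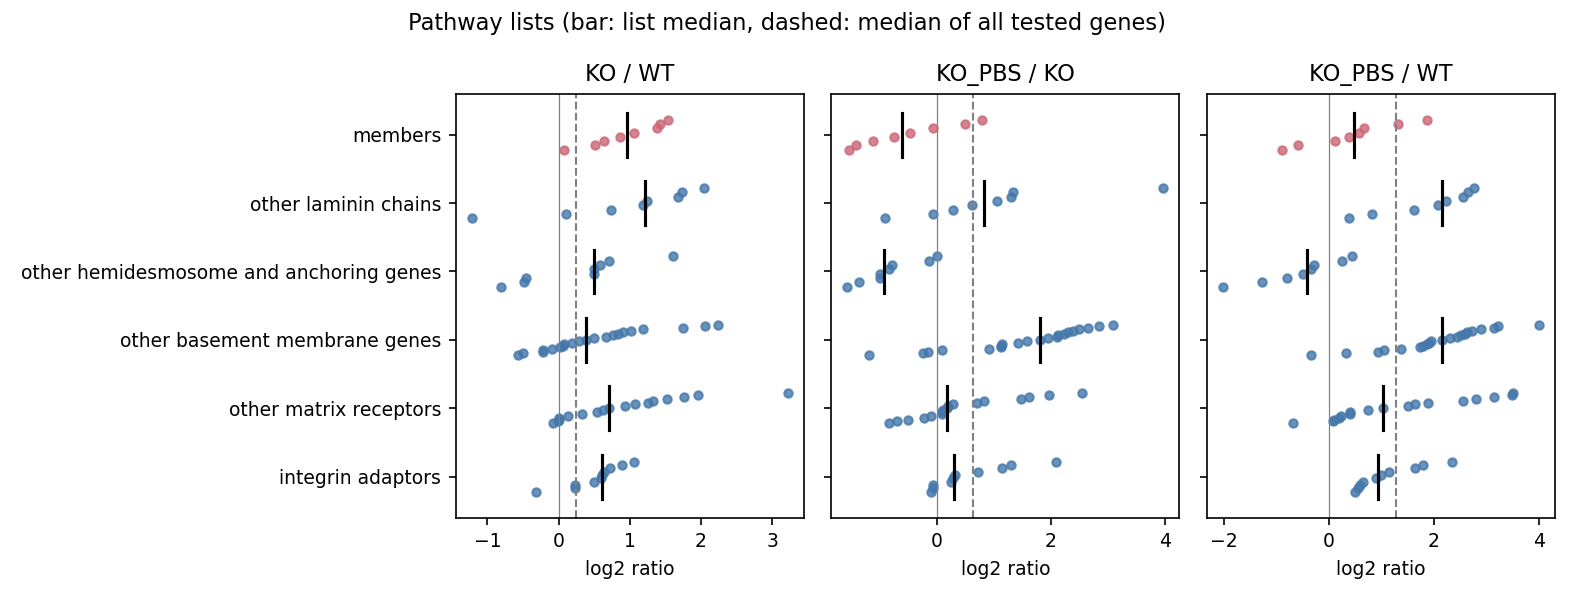
Log2 ratio of every gene of the 8 described and of the pathway lists in the 3 comparisons; the bar is the list's median and the dashed line the median of all genes tested. In KO_PBS against KO the medians of the 8 genes (-0.61) and of the hemidesmosome list (-0.92) lie below the all-gene median of 0.63, and that of the basement membrane list (1.81) lies above it.

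The genes were then followed over barcodes. A UMI of Lama3 was found in 29.0% of WT, 49.7% of KO and 10.3% of KO_PBS barcodes. Thinned to 500 UMIs per barcode, which left out 473 KO_PBS barcodes, the shares were 7.09%, 11.1% and 3.53%. The order of the libraries stayed the same. For Itga6 the shares of 16.6%, 47.2% and 10.9% became 3.51%, 9.91% and 3.65%, so WT and KO_PBS lay together at equal depth. For Hspg2 the shares of 3.64%, 9.18% and 7.57% became 0.757%, 1.47% and 2.55%, and KO_PBS moved from the middle to the top.

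These shares are not read as counts of expressing cells, since the source of a UMI in a barcode was not tested. Barcodes rich in photoreceptor markers held Lama3 in 4.88% of WT, 13.9% of KO and 3.23% of KO_PBS barcodes after thinning. Barcodes rich in basal and limbal epithelial markers held it in 4.43%, 9.47% and 9.03%. The exact 95% intervals of the epithelial and photoreceptor shares of Lama3 overlapped in WT (2.76 to 6.69% and 2.36 to 8.79%) and in KO (6.82 to 12.7% and 9.05 to 20.2%). In KO_PBS they were 5.03 to 14.7% and 1.96 to 5.00%. The basal class of WT and the photoreceptor class of KO_PBS held no more markers of their own than of another class among their 10 leading genes by fold, so the libraries are not compared within these classes. Itga6 gave 2.93%, 7.88% and 3.06% in photoreceptor-marker-rich and 3.59%, 9.95% and 12.9% in basal-marker-rich barcodes. Median UMIs of the former were 2703, 3525 and 2187, and of the latter 4160.5, 4966 and 3193.

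The level also depended on depth in KO_PBS. From the 25% of barcodes with the fewest UMIs to the 25% with the most, Lama3 ran through 56.9, 66.5, 74.5 and 105 CPM, and Itga6 from 63.3 to 88.1. Lamb3 went from 30.6 to 28.6 and Hspg2 from 53.4 to 52.2, so these genes were nearly flat. At the same ends of the range Lama3 stood at 159 and 160 CPM in WT, and at 249 and 237 in KO. The 25% with the fewest UMIs are called low-UMI barcodes here, and in WT and KO their levels of Lama3 were close to those of the deepest barcodes.

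Marker-rich barcodes were set against these low-UMI barcodes. A barcode was counted as rich in a class's markers when at least 3 of them had a UMI and their sum exceeded its expectation from the library with a Poisson tail of at most 1e-06. Such a class is a range of a score and not a cell type. At a tail of 1e-10, the basal and limbal class kept 236 of 474 WT, 135 of 412 KO and 74 of 155 KO_PBS barcodes. Classes with at least 50 barcodes were used, and no doublets were removed. Of the 72 pairs of gene and class in WT, 2 were called higher (2.78%) and 3 lower than the low-UMI barcodes, where over all genes 2.66% of pairs were higher and 1.37% lower. In KO, 0 of 80 pairs were called, against 1.34% higher and 0.979% lower over all genes. In KO_PBS, 17 of 88 were higher (19.3%) and 4 lower, against 11.2% and 2.45% over all genes.

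**Figure D5:**
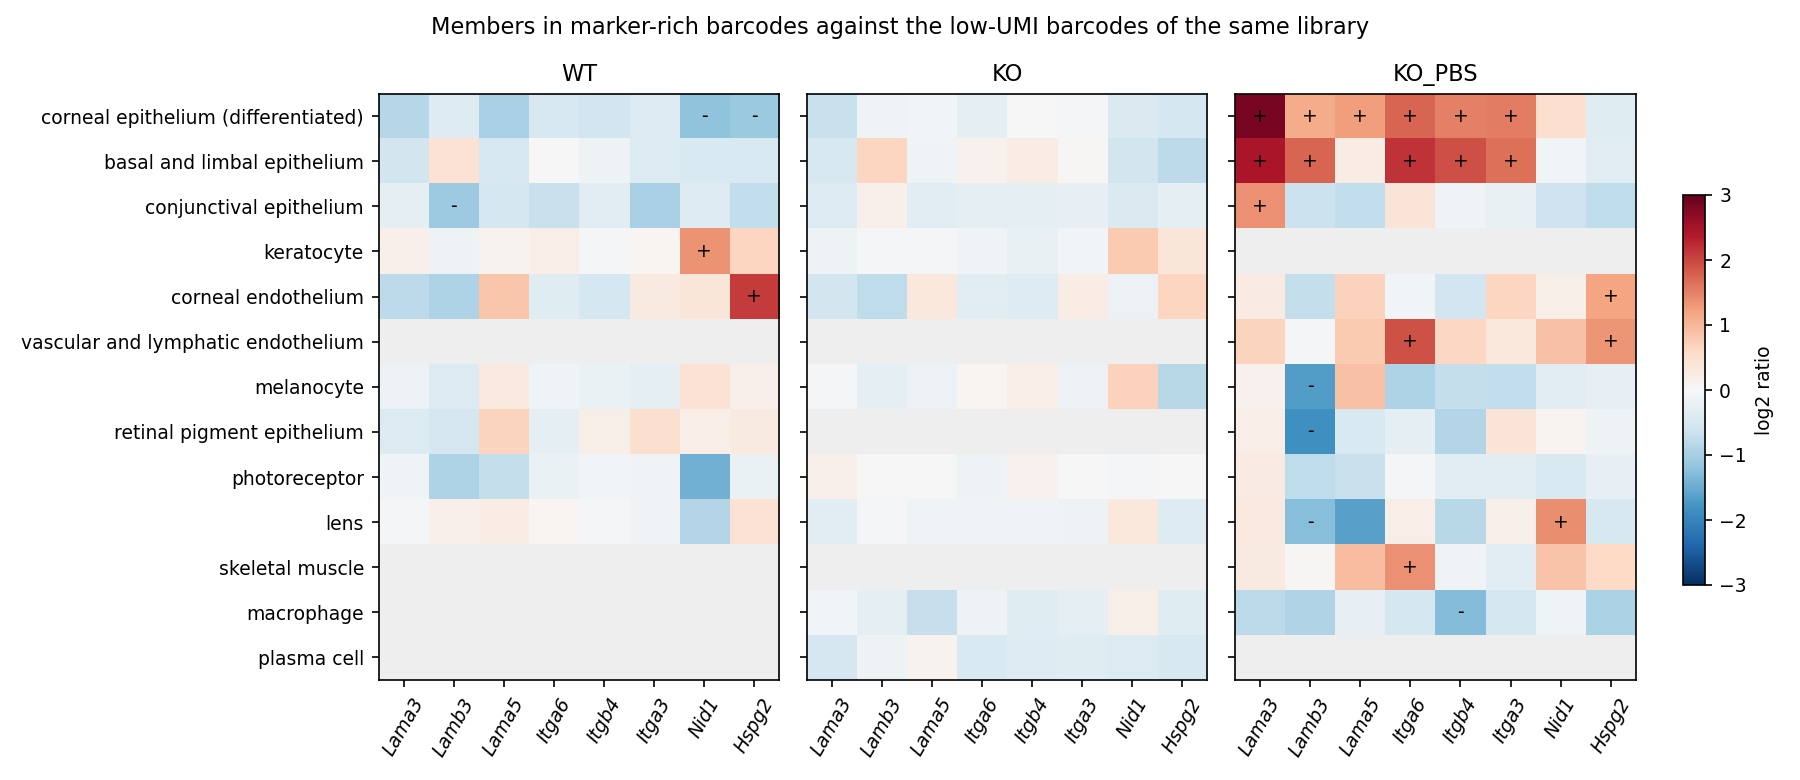
Log2 ratio of each gene's CPM in marker-rich barcodes over low-UMI barcodes of the same library; plus and minus signs mark values called higher or lower, and grey marks classes under 50 barcodes. The 17 higher calls of KO_PBS lie mostly in the epithelial classes for Lama3, Lamb3, Itga6, Itgb4 and Itga3, while WT has 2 and KO has 0.

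In WT, both pairs called higher were of linkers. Nid1 stood at 29.6 CPM in 1832 keratocyte-marker-rich barcodes against 11.7 in low-UMI barcodes, 2.54-fold higher (2.16 to 2.98), where 4.38% of all genes were called higher. Hspg2 stood at 63.3 CPM in 122 corneal endothelium-marker-rich barcodes against 14.9, 4.26-fold higher (2.98 to 5.92), where 7.71% were. The corneal endothelium is the cell layer that lines the back of the cornea. In KO the same pairs had log2 ratios of 0.78 and 0.64 and were not called. The pairs called lower in WT were Nid1 (5.06 CPM) and Hspg2 (6.89 CPM) in the differentiated epithelial class, where 5.95% of genes were lower, and Lamb3 (8.89 CPM) in the conjunctival class, where 1.38% were. In the basal and limbal class of WT and KO, none of the laminin or integrin genes was called, and Lama3 stood lower there (108 CPM in WT, 179 in KO) than in low-UMI barcodes (159 and 249). In KO, Lama5 was also lower in this class (13.5 against 14.7 CPM). Lamb3 (75.8 against 48.2 CPM), Itga6 (230 against 209), Itgb4 (182 against 157) and Itga3 (71.6 against 69.7) were higher, short of the rule. The median share of differentiated epithelial markers in that class was 373 UMIs per 10000 in WT and 301 in KO, above the 248 and 190 of its own markers.

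In KO_PBS, the epithelial classes stood out. In 173 barcodes rich in differentiated corneal epithelial markers, Lama3 stood at 406 CPM against 56.9 in low-UMI barcodes, 7.15-fold higher (6.19 to 8.22). Itga6 (212 against 63.3 CPM), Itgb4 (192 against 67.9), Itga3 (138 against 48.0), Lamb3 (66.5 against 30.6) and Lama5 (46.8 against 19.7) were also called, so 6 of 8 genes were higher, where 8.37% of all genes were. Nid1 and Hspg2 were not called. None of the class's own markers was among its 10 leading genes by fold. Median UMIs were 2629 in this class and 969 in low-UMI barcodes, and Lama3 stood at 105 CPM in the 25% with the most UMIs. The part of depth in the folds over low-UMI barcodes of KO_PBS was not tested.

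In 155 barcodes rich in basal and limbal markers, 5 of the 8 genes were called higher, where 12.2% of all genes were. Lama3 stood at 309 CPM, 5.44-fold higher than in low-UMI barcodes, Itga6 at 286, 4.52-fold higher, and Itgb4 at 258, 3.80-fold higher. Lamb3 stood at 102 CPM and Itga3 at 150. Lama5 (23.0 CPM), Nid1 (23.0) and Hspg2 (42.4) were not called. Their partners were higher there as well, with Col17a1 at 931 against 339 CPM, Plec at 482 against 147 and Col7a1 at 65.4 against 18.2. Differentiated epithelial markers had a median of 199 UMIs per 10000 in this class, its own markers 126 and lens markers 34.8.

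Outside the corneal epithelial classes of KO_PBS, the calls were few. Lama3 was higher in 157 conjunctival-marker-rich barcodes, at 146 CPM, where 8.97% of all genes were called. Hspg2 was higher in 576 corneal endothelium-marker-rich barcodes (121 against 53.4 CPM, with 16.9% of all genes called) and in 93 barcodes rich in vascular and lymphatic endothelial markers (135 CPM, with 13.1% called). Itga6 was higher in the latter too, at 236 CPM, and in 72 skeletal muscle-marker-rich barcodes, at 163 CPM, where 5.57% of genes were called. Nid1 was higher in 249 lens-marker-rich barcodes, at 63.7 against 24.2 CPM, where 1.9% were. Lamb3 was called lower in the melanocyte, retinal pigment epithelium and lens classes, with 9, 1 and 6 UMIs, where 5.77%, 1.78% and 0.454% of genes were called lower. Itgb4 was called lower in the macrophage class with 5 UMIs, where 1.09% of genes were.

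Classes were compared between libraries only where, in both, the 10 leading genes by fold held more markers of the class than of any other, which left out the differentiated epithelial class throughout, the basal class of WT and the photoreceptor class of KO_PBS. In keratocyte-marker-rich barcodes, Lamb3 (45.9 CPM in KO, 17.1 in WT, log2 ratio 1.42) and Itga6 (191 and 80.0, log2 ratio 1.25) were called higher in KO, where 16.4% of all genes were. Nid1 (51.5 and 29.6 CPM) had a log2 ratio of 0.80 and Hspg2 (40.1 and 23.3) of 0.78, and neither was called. Itga6 was also called higher in KO in the conjunctival class (log2 ratio 1.93, with 18.3% of genes called), the corneal endothelial class (1.60, 12.2%) and the melanocyte class (1.78, 10%). It was called in the photoreceptor class (1.60, 15.7%) and the lens class (1.40, 15.2%) as well. Lamb3 was called in the conjunctival (2.59) and lens (1.14) classes, and Itga3 in the conjunctival class (1.58). In low-UMI barcodes Itga6 stood at 70.2 CPM in WT and 209 in KO, so the difference was present there too. The keratocyte class held a median of 468 differentiated epithelial marker UMIs per 10000 in WT and 299 in KO. Its own markers had 76.3 and 121. Differentiated epithelial markers had 469 and 337 in the melanocyte class, 479 and 316 in the photoreceptor class, and 500 and 331 in the lens class. The part of epithelial RNA in these KO to WT ratios was not tested.

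In the basal and limbal class, the CPM of Lama3, Itga6 and Itgb4 did not stand lower in KO_PBS than in KO. Lama3 stood at 309 CPM in KO_PBS and 179 in KO there (log2 ratio 0.79), Itga6 at 286 and 230 (0.32) and Itgb4 at 258 and 182 (0.50), none of them called. In library sums the same ratios were -1.54, -1.43 and -1.11. The class is chosen against the marker sum of its own library, 9592 CPM in KO and 3629 in KO_PBS, so its barcodes are not alike. Lama3 stood lower in the class than in low-UMI barcodes in KO (249 CPM there) and higher in KO_PBS (56.9 CPM there). The part of this choice in the class ratios was not tested. Itga3 (150 and 71.6 CPM, 1.07) and Hspg2 (42.4 and 18.2, 1.22) were called higher in KO_PBS in this class, where 26% of genes were called. In the corneal endothelial class, Hspg2 was called higher in KO_PBS (121 against 48.8 CPM, 1.31, with 24.1% of genes called).

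In the other classes compared, most calls between KO_PBS and KO were of lower Lama3, Itga6 and Itgb4. Epithelial markers were also lower in these classes of KO_PBS. Median basal and limbal marker UMIs per 10000 in KO and KO_PBS were 86.1 and 21.1 in the corneal endothelial class, 91.5 and 17.1 in the melanocyte class, 94.1 and 31.5 in the lens class, 76.5 and 21.5 in the macrophage class and 135 and 63.5 in the conjunctival class. Those of differentiated epithelial markers were 266 and 175, 337 and 151, 331 and 265, 270 and 174, and 300 and 180 in that order. The part of epithelial RNA in the ratios of these classes was not tested. In the corneal endothelial class the log2 ratios of Lama3, Itga6 and Itgb4 were -1.32, -1.49 and -1.38, where 5.58% of genes were called lower. In the melanocyte class they were -1.96, -2.73 and -2.11, with 8.62% of genes called, and in the lens class -1.51, -1.41 and -1.93, with 7.36%. Lama3 (-2.83) and Itga6 (-2.10) were called lower in the macrophage class, where 11.1% of genes were. In the conjunctival class, Lamb3 (-1.44), Itga6 (-1.03) and Itgb4 (-1.03) were called lower, where 7% were, and Lama3 was not (-0.36). Against WT, Lama3 and Itgb4 were called lower in KO_PBS in the melanocyte class (-1.18 and -1.20, with 10.7% of genes called) and the lens class (-1.14 and -1.48, with 7.53%). Hspg2 was called higher in the melanocyte class (1.44), where 43.7% of genes were. Lens, photoreceptor and melanocyte marker sums over the whole library were highest in KO_PBS, and their part in these class values was not tested either.

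Across the 30 sums of class and library, with each gene centred within its library, the genes were set against each other. Itgb4 followed Lama3 (Pearson r 0.870), Itga6 (0.868) and Lamb3 (0.829), while Nid1 and Hspg2 had an r of 0.441 and Lama3 and Hspg2 of -0.05. These points share 3 libraries and their depth, so the values are descriptions. Among 8099 candidate genes, with the 8 themselves left out, those most like Lama3 were Cpd (0.908), Egfr (0.898) and Mast4 (0.894), and those most like Itgb4 were Slc7a1 (0.924), Mast4 (0.896) and Plec (0.880). Plec was also the first for Lamb3 (0.830), before Frmd6 (0.827) and Samd12 (0.819), and for Itga6 (0.832), before Samd12 (0.830) and P3h2 (0.817). Lama5 was most like Wdr77 (0.899), Ahctf1 (0.848) and Gm15614 (0.844), and Itga3 like Jag2 (0.817), 1700025G04Rik (0.776) and Hlf (0.768). Nid1 was most like Serpinh1 (0.716), Matn4 (0.704) and Dcn (0.698), of which Dcn is a keratocyte marker used to choose barcodes. Hspg2 was most like Cachd1 (0.875), Tcf4 (0.871) and Chn2 (0.861).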

How the data were processed

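UMI counts per gene and barcode were deposited by the authors as whole numbers that were not normalized, for 3 single-nucleus libraries made with the 10x Genomics single-cell 3' kit, per the labels' protocols. Cell Ranger 7.0.1 and the build mm10 are named in the submitters' processing notes. The annotation, the use of intronic reads and strand, and the barcode filter are not given in the sources used here. The WT and KO files list 32285 genes and the KO_PBS file 31053, and the 30406 shared Ensembl IDs were used. These held 99.6%, 99.6% and 99.3% of 256852883, 352627863 and 178988562 UMIs.

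UMIs were summed over all barcodes of a library and scaled to a common library size (CPM). Counts below 3 were set to 3 in folds. Intervals are exact at 95%, Poisson for sums and Clopper-Pearson for shares. Classes used called barcodes. These had 500 or more genes, no more than 5% mitochondrial UMIs, and a total of 10% or more of the 99th percentile among the 10000 largest. Of the lens markers, 10 were listed in the files. Likeness used log2 of CPM plus 1, for genes with at least 2000 UMIs per library.

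All 8 genes were named. Genes of the pathway lists were named when called and among the 3 with the largest log2 ratio, or as partner chains. Some results are not reported here. The genes and lists were chosen with earlier results of these data known. The size rule was tested on simulated data. Alternatives were other scalings, barcode sets, thresholds and class rules. Sums used numpy 2.4.6 and pandas 2.3.3 in python 3.11.15, intervals scipy 1.17.1, and figures matplotlib 3.10.9.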

Additional observations from a re-analysis of the deposited data

How the results depend on the processing

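Each group is 1 library of 5 pooled mice, so scaling, the barcodes used and the thresholds could be varied, but the spread between animals is unknown. No paired analysis was possible because each group has a single library. Centred on the median gene, 5 of the 8 genes were lower in KO_PBS against KO, adding Lamb3 and Itga3. Against WT, centring gave 0 higher and 3 lower in KO_PBS (Lama3, Itga6 and Itgb4). It moved the share of higher among called genes from 70.4% to 53.3% in KO against WT, from 89.5% to 69.8% in KO_PBS against KO and from 93.3% to 56.2% in KO_PBS against WT. With low-UMI barcodes alone, 1 gene (Lama3) was lower in KO_PBS against WT, as were 4.3% of all genes. With a fold of 1.5, 1 gene (Hspg2) was higher in KO_PBS against KO, where 50.9% of all genes were, and 2 (Lama3 and Itgb4) were lower against WT, where 7.53% were.

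The following scalings were chosen after the data were seen. Scaled to Col17a1, 1 gene (Itga6) was higher in KO against WT (11.3% of all genes), and 2 (Lama5 and Hspg2) were higher and 0 lower in KO_PBS against KO (75% and 1.98%). Against WT, 4 (Lamb3, Lama5, Nid1 and Hspg2) were higher in KO_PBS (71.1%). Scaled to Krt5, 4 (Lama5, Itga3, Nid1 and Hspg2) were higher and 0 lower in KO_PBS against KO (91% and 1.55%), and 8 were higher against WT (96%). In KO against WT, Krt5 scaling gave 6 higher (Lama3, Lamb3, Itga6, Itga3, Nid1 and Hspg2), where 36.7% of all genes were. Under Krt5 scaling the log2 ratios of KO_PBS to KO turned to 0.036 for Lama3, 0.15 for Itga6 and 0.46 for Itgb4, because the ratio of Krt5 itself, -1.58, is taken from that of every gene. Of the 24 log2 ratios, 18 kept their sign when centred, 24 in called barcodes, 23 with at least 1000 genes per barcode, 20 under Col17a1 and 16 under Krt5. With the count of 6 included, 59 counts under alternatives stayed within 1.5 times the reported count, and 13 moved. A count of 0 that stayed at 0 was taken as unchanged.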
